A study of Danio rerio with 18 samples.

Results

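RNA from zebrafish heart tissue taken 6 days post amputation (dpa) of the ventricular apex was compared with RNA from heart tissue taken at 0 dpa, with 2 libraries at each time point. The comparison covered 9273 of the 15268 genes in the authors' table. These are the genes with a mean FPKM of at least 3 at 0 or at 6 dpa, without hbaa1 and ba1, 2 haemoglobin symbols that exceeded 1000 FPKM in one of the 4 libraries and stood at 0 in another. FPKM is the number of sequenced fragments of a transcript, divided by its length and by the size of the library, so it gives a level per length. The 4 libraries are part of a series of 18 samples, which also holds RNA of heart tissue at 9 dpa, chromatin libraries of the same tissue and samples of PAC2, a line of zebrafish embryonic fibroblasts. All fish were of the TAB line, a hybrid of AB and Tubingen fish, kept in a timed cycle of light and dark, and no allele, drug or sham operation is named for either group. The labels call the material regenerative cardiac cells, and the methods call it newly regenerated heart tissue at every time point, 0 dpa included. The number of hearts in a library, the age and sex of the fish, the hour of dissection and the position of the 0 dpa tissue in the heart are not given in the sources used here. In whole tissue, fewer cells of a type and less RNA per cell cannot be told apart. The methods name the libraries biological replicates. The p-values measure only the spread between libraries, and this was estimated over the 6 libraries of 0, 6 and 9 dpa.

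After loss of the apex, the zebrafish ventricle closes the wound with a clot and then with matrix, the epicardium around it is activated, and surviving heart muscle cells divide to rebuild the wall. Heart tissue also holds a circadian clock, in which the Clock and Bmal (Arntl) proteins activate genes for period, cryptochrome and Nr1d proteins that in turn repress the activators. Glucocorticoid hormone and cell stress act on further sets of genes in the same cells, among them fkbp5 and the heat shock chaperones.

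The markers of heart muscle were among the most abundant transcripts in each of the 4 libraries. Myl7, a myosin light chain of heart muscle, was the most abundant of them, with an FPKM of 30405 and 17283 in replicates 1 and 2 of 0 dpa and 13278 and 14030 at 6 dpa. Values are given in this order, replicate 1 before replicate 2. The epicardial markers tcf21 and tbx18 and the endothelial markers kdrl and cdh5 were all present, at an FPKM of at least 13.1 in each of these libraries. The replicates of 0 dpa lay farthest apart. Across the 9273 genes, which are not independent of each other, Pearson's r of log2(FPKM + 1) was 0.925 between the 0 dpa libraries and 0.950 between those of 6 dpa. The 0 dpa replicates were at least 2-fold apart in 1290 genes and the 6 dpa replicates in 520. Those of 9 dpa, which also entered the estimate of spread, were so in 343. Of the 48 macrophage and neutrophil genes tested, 41 were higher in 0 dpa replicate 2 than in replicate 1. Of the 25 keratin and skin genes tested, 18 were higher in 6 dpa replicate 2. Results that rest on these libraries are given with and without them. The FPKM of a library, without hbaa1 and ba1, summed to 1233380 and 860091 at 0 dpa and to 842513 and 803421 at 6 dpa. The table holds no fragment counts, so the number of fragments behind a single value is not known.

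Between 6 and 0 dpa, 1423 genes (15.3% of the 9273 tested) met the study's 3 criteria, which are an unadjusted P value under 0.05, a change of at least 1.5-fold and the mean FPKM of at least 3. Of these, 727 were higher at 6 dpa (7.84%) and 696 were lower (7.51%). With a Benjamini-Hochberg adjusted p under 0.05 in limma, 64 genes passed (0.69%), and 21 of them rose (0.226%) while 43 fell (0.464%). The words rose and fell are kept for these 64 genes, and genes that met only the 3 criteria are called higher or lower. The difference was at least 2-fold in 767 of the 1423 genes, at least 4-fold in 136 and at least 8-fold in 34. The 2 libraries of 0 dpa and the 2 of 6 dpa did not overlap in 1421 of the 1423 genes, where 45.7% of all genes tested did not overlap. Genes at low level were more often higher and abundant genes more often lower. Below an FPKM of 10 in the group with the higher mean, 299 genes were higher and 94 lower, and from 100 upward 41 were higher and 123 lower. This balance depended on how the libraries were scaled. When all libraries were rescaled to equal sums of FPKM, the median difference of all genes moved from -0.003 to 0.30 on the log2 scale, and 1684 genes were higher and 357 lower, so that 82.5% of the genes meeting the criteria were higher instead of 51.1%. The list medians given below with equal sums include this shift of all genes. Single libraries moved the counts as well. Without 0 dpa replicate 2, 2300 genes met the 3 criteria and 221 had an adjusted p under 0.05, and without 6 dpa replicate 2 these counts were 994 and 11. Leaving out 0 dpa replicate 1 gave 1692 and 96, and leaving out 6 dpa replicate 1 gave 985 and 145. Of the 64 genes past the adjusted threshold, 39 remained without 0 dpa replicate 1, 56 without 0 dpa replicate 2, 14 without 6 dpa replicate 1 and 11 without 6 dpa replicate 2. The libraries of 0 and 6 dpa overlapped in 0 of these 64 genes, so leaving out a library could not turn their direction. All 64 genes kept it under each of the 14 settings tried. Without overlap, another pseudocount could not turn it either. The settings for filter, exclusion, block, trend and the 4 libraries alone leave the fold change as it is. Only a rescaling of the libraries could have turned the direction. No overlap was also a condition for the 15 largest falls and rises named below, and 1421 of the 1423 genes share it. It is therefore no separate support for single genes. Of the 64 genes, 6 passed the adjusted threshold under each of the 10 settings that leave out no library. These 6 genes are nr1d1, ciarta, fkbp5, hsp70l, hrh3 and slc25a33.

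**Figure D1:**
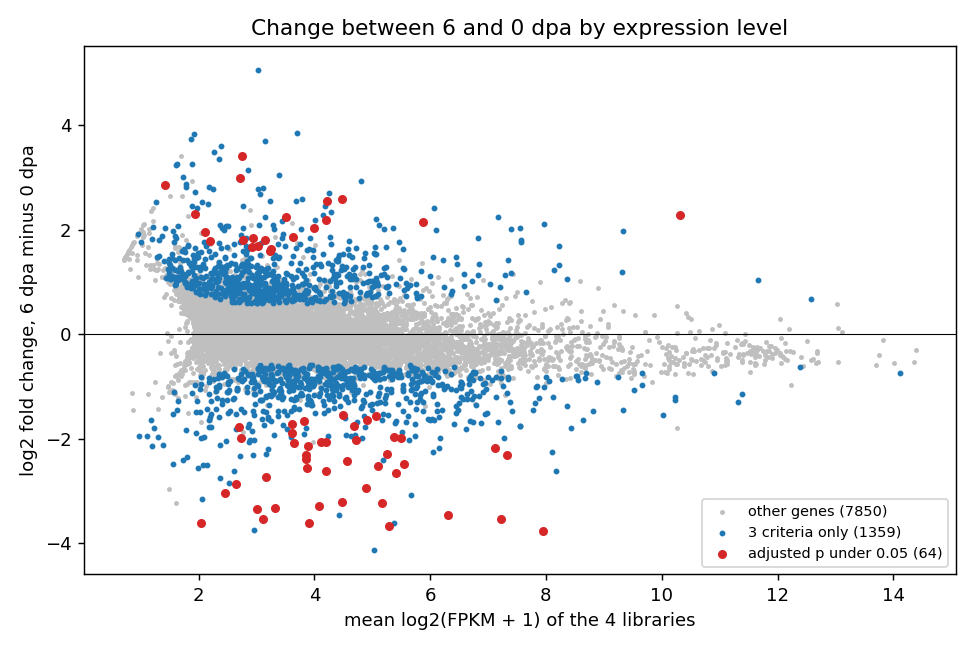
Each point is one of the 9273 genes, with its mean log2(FPKM + 1) over the 4 libraries on the x axis and its log2 fold change, 6 minus 0 dpa, on the y axis. Red points are the 64 genes with an adjusted p under 0.05, blue points the other 1359 genes that met the 3 criteria and grey points the remaining 7850, and the red points lie mostly below the line of no change.

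The largest falls included those of a small heat shock protein, a protein kinase, a thyroid hormone precursor, a nuclear receptor of the clock and a co-chaperone of the glucocorticoid receptor. Hspb6, a small heat shock protein of muscle, had an FPKM of 1081 and 769 at 0 dpa against 76.7 and 56.7 at 6 dpa. Both 6 dpa libraries lay far below both of 0 dpa, and hspb6 fell by 3.77 on the log2 scale, with a standard error of 0.39 and an adjusted p in limma of 0.0141 (0.012 to 0.075 over the 10 settings). Leaving out any 1 library kept its difference between -4.01 and -3.52. Fkbp5, which encodes a co-chaperone of the glucocorticoid receptor and is itself induced by it, had 590.0 and 432 at 0 dpa against 39.9 and 45.7 at 6 dpa. It fell by 3.53 (standard error 0.30, adjusted p = 0.00778 with a range of 0.00523 to 0.0423 across the settings). Tg, the gene for thyroglobulin, from which thyroid hormone is made, had 13.4 and 13.5 at 0 dpa against 0.136 and 0.209 at 6 dpa. The replicates of each time point lay close together, and tg fell by 3.62 (standard error 0.55, adjusted p = 0.0393, under the threshold in 6 of 10 settings). Other defining thyroid genes were at or near 0. Slc5a5, the iodide transporter, had 0.911 and 0.436 at 0 dpa against 0.192 and 0 at 6 dpa, while tshr, pax2a and nkx2.4b did not exceed 0.262 in any of these libraries. Of the 7 thyroid genes in the table, a list added after the values were seen, 3 passed the FPKM filter. Of these 3, tg was the 1 that met the criteria (33.3%, beside 15.3% of all genes tested). The summed level of the list was 34.2 to 75.5 at 0 dpa against 40.9 to 45.4 at 6 dpa, with dio1 the highest of its genes in each library, and the part of thyroid tissue in the fall of tg was not tested.

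A histamine receptor, an inhibitor of a kinase and a troponin gene were also among the 15 largest falls. Hrh3, a histamine receptor, had an FPKM of 89.0 and 74.98 at 0 dpa against 8.72 and 10.8 at 6 dpa, and fell by 2.95 (standard error 0.26, adjusted p = 0.00778). Every 0 dpa value was far above every 6 dpa value. Camk2n1a, an inhibitor of the calcium-dependent kinase CaMKII, had 99.7 and 120.3 at 0 dpa against 5.84 and 19.4 at 6 dpa. Its 6 dpa replicates differed more than 3-fold from each other, yet both lay below 0 dpa, and it fell by 3.23 (adjusted p = 0.0393, under 4 of 10 settings). Tnni4b.3, a troponin I family member, had 407 and 166 at 0 dpa against 14.1 and 36.7 at 6 dpa. It fell by 3.45 (adjusted p = 0.0494) but passed the threshold under 2 of the 10 other settings. Sbk3, which encodes a protein kinase, had 191 and 99.0 at 0 dpa against 5.47 and 17.4 at 6 dpa, and fell by 3.67 (adjusted p = 0.0361, under 5 of 10 settings). Arg2, a mitochondrial arginase, fell from 44.5 and 60.3 to 3.13 and 6.08, a change of -3.29 (adjusted p = 0.0131). Ankrd9 fell by 3.21 and si:ch211-132b12.7 by 3.33, from 57.3 and 77.8 to 3.39 and 11.2 for the first and from 44.9 and 20.7 to 2.04 and 2.23 for the second. Ankrd9 passed the threshold under 4 of the 10 settings. Among the 28 falls outside the 15 largest, these members were picked after their values were seen. Adrb2b, a beta-adrenergic receptor, fell from 25.3 and 19.2 to 1.301 and 4.17. Slc25a33, a mitochondrial pyrimidine carrier, fell from 85.4 and 77.1 to 14.2 and 12.4, by 2.53 on the log2 scale. Bag3, a co-chaperone that clears damaged muscle proteins, fell from 106 and 62.4 to 20.03 and 19.9. In all 3 the groups did not overlap, as in all 64 genes past the adjusted threshold.

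The largest rises included a transcription factor of the clock output, muscle genes, a red blood cell enzyme and a secreted regulator of Wnt signalling. Nfil3-2, a member of a family of repressors that bind the same sites as the PAR bZIP factors, had an FPKM of 1.19 and 0.946 at 0 dpa against 13.8 and 31.1 at 6 dpa. It rose by 3.40 (standard error 0.36, adjusted p = 0.0141), and both 6 dpa values were more than 10 times those of 0 dpa. Asb15b, an ankyrin repeat and SOCS box protein of striated muscle, had 1.29 and 1.35 at 0 dpa against 12.6 and 24.2 at 6 dpa, and rose by 2.99 (standard error 0.32, adjusted p = 0.0141). Lmod2a, a leiomodin that builds actin filaments in the sarcomere, had 10.9 and 5.98 at 0 dpa against 54.6 and 52.9 at 6 dpa. It rose by 2.59 (standard error 0.34, adjusted p = 0.0334), and the 6 dpa libraries agreed closely. Ypel3 rose from 7.02 and 6.28 to 52.0 and 36.9 (2.55, adjusted p = 0.0335) and tpmt.2 from 0.520 and 0.946 to 8.53 and 6.58 (2.305, adjusted p = 0.0493). Cahz, the carbonic anhydrase of fish red blood cells, was the most abundant gene that rose, with 747 and 443 at 0 dpa against 2948 and 2656 at 6 dpa. The change was 2.28 (standard error 0.37, adjusted p = 0.0489 with a range of 0.0216 to 0.146 across the settings, under the threshold in 4 of 10). Sfrp1a, a secreted binder of Wnt ligands, had 4.60 and 3.92 at 0 dpa against 29.4 and 19.4 at 6 dpa, and rose by 2.24 (standard error 0.28, adjusted p = 0.0314). The groups lay well apart, with the lower 6 dpa value above 4 times the higher 0 dpa value.

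Other rises concerned chromatin, the spindle and cell death genes. Kdm6bb, a demethylase of H3K27, rose from an FPKM of 5.79 and 5.18 to 22.9 and 22.0 (1.86, adjusted p = 0.0342). Tacc3, a protein of the mitotic spindle, rose from 4.26 and 3.24 to 15.9 and 15.1 (1.81, adjusted p = 0.0335). Gsdmeb, a gasdermin, rose from 9.501 and 4.99 to 36.2 and 26.9 (2.02, adjusted p = 0.0494, under 4 of 10 settings). The groups of these 3 genes did not overlap, which was a condition for naming them. Dapk2a, a death-associated protein kinase, rose from 2.72 and 2.56 to 13.9 and 9.84, and zgc:56095 from 27.7 and 26.1 to 137 and 109. Rspo3, an R-spondin that strengthens Wnt signals, rose from 3.51 and 3.59 to 15.4 and 12.1, and was named after its values were seen. Bmf1, a member of the BH3-only proteins that promote apoptosis, stood at 0 in both libraries of 0 dpa and at 6.58 and 5.89 at 6 dpa. No fold change is given for it because the 0 dpa values could be failed estimates (adjusted p = 0.0364).

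**Figure D2:**
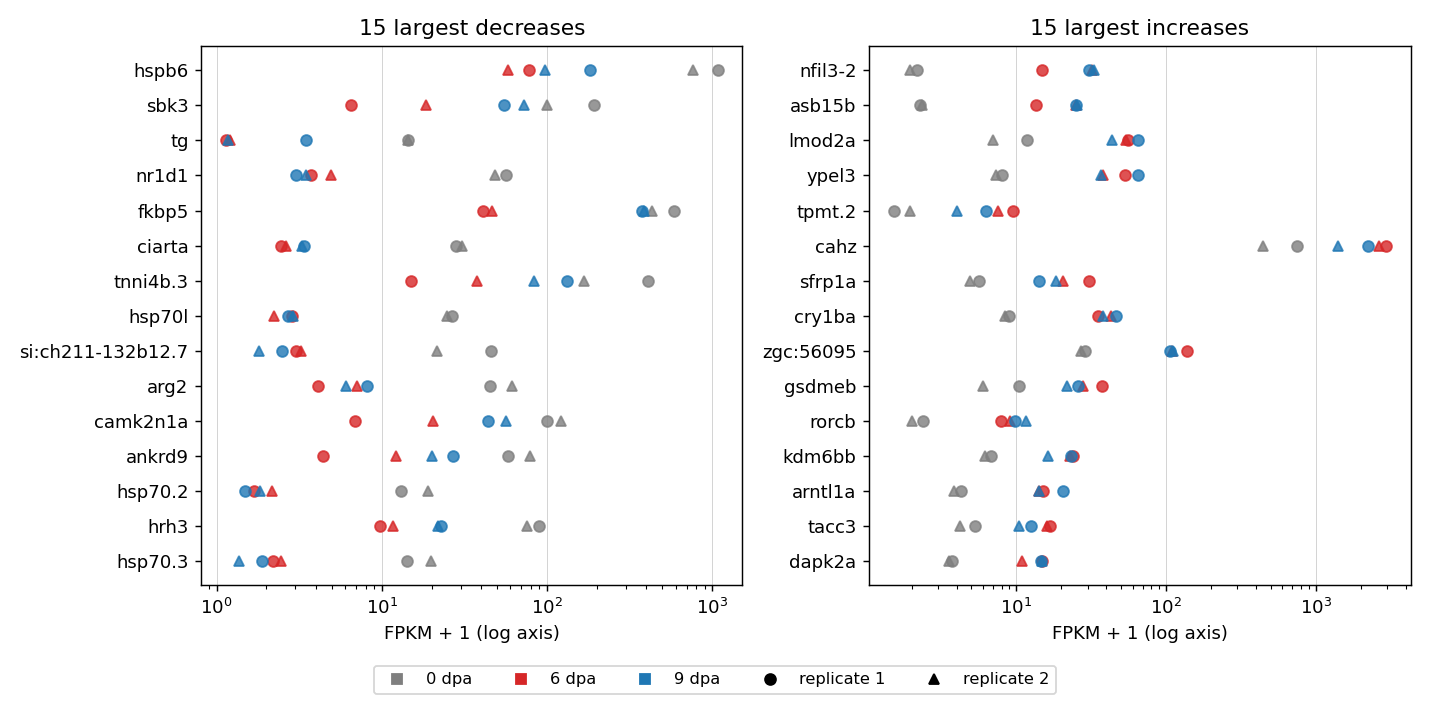
FPKM + 1 on a log axis in the 6 RNA libraries for the 15 largest falls (left) and the 15 largest rises (right) with an adjusted p under 0.05, no overlap and no group at 0. Grey is 0 dpa, red is 6 dpa and blue is 9 dpa, circles are replicate 1 and triangles replicate 2, and in each row the red and the grey points stand apart.

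The clock genes moved in opposite directions by their role in the loop. Of 8 clock activators tested, 6 were higher at 6 dpa by the 3 criteria and 0 lower, with a median log2 fold change of 1.47 beside -0.003 for all genes. Of 19 clock repressors, 14 were lower and 2 higher, with a median of -1.49. Among the 64 genes past the adjusted threshold, which are 0.69% of all genes tested, 12 were on the 3 clock lists. These lists hold 36 tested genes and were chosen with earlier results of these data known, so the count is no independent support. Leaving out any 1 library kept the median of the activators between 1.33 and 1.68 and that of the repressors between -1.62 and -1.34. On the activator side, arntl1a, a zebrafish Bmal1 gene (bmal1a), had an FPKM of 3.26 and 2.86 at 0 dpa against 14.0 and 13.1 at 6 dpa, and rose by 1.85 (standard error 0.26, adjusted p = 0.0342). Its paralog arntl1b rose from 1.38 and 1.56 to 7.27 and 7.68 (1.78, adjusted p = 0.0364). Rorcb, a ROR nuclear receptor that activates Bmal1 genes in mammals, rose from 1.38 and 1.03 to 6.90 and 8.10 (1.95, adjusted p = 0.0342). In these 3 genes the replicates of each time point agreed and the groups were far apart. Rorca met the 3 criteria, with 7.12 and 5.74 at 0 dpa against 17.5 and 22.6 at 6 dpa (1.499, adjusted p = 0.0683). The other 2 activators that met the criteria were clocka and clockb.

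On the repressor side, nr1d1, which encodes the nuclear receptor Rev-erb alpha that represses Bmal1 genes, had an FPKM of 55.2 and 47.6 at 0 dpa against 2.75 and 3.90 at 6 dpa. It fell by 3.61 (standard error 0.25, adjusted p = 0.00434 with a range of 0.00217 to 0.0366 across the 10 settings). Ciarta, a repressor of Clock and Bmal activity, had 27.21 and 29.4 at 0 dpa against 1.46 and 1.62 at 6 dpa, and fell by 3.53 (standard error 0.25, adjusted p = 0.00434). Both genes had the smallest p-values of the comparison. Per1b, a period gene, had 52.3 and 38.2 at 0 dpa against 7.20 and 5.67 at 6 dpa (-2.63, adjusted p = 0.013). Bhlhe41, a repressor of E-box genes, had 35.2 and 34.3 at 0 dpa against 4.74 and 5.34 at 6 dpa (-2.57, adjusted p = 0.0094). These falls had no overlap, like all 64 genes past the adjusted threshold. Nr1d2a, cry2 and per2 also fell, by 2.66, 2.06 and 1.54, and were named after their values were seen. A cryptochrome went the other way. Cry1ba had 7.89 and 7.40 at 0 dpa against 34.3 and 42.2 at 6 dpa, and rose by 2.18 (standard error 0.26, adjusted p = 0.0257). Cry1bb was the second repressor that was higher by the 3 criteria. In the nfil3 and PAR bZIP list, the output arm of the clock, 3 of 9 genes were higher and 5 lower, with a median of -1.15. Nfil3-5 had 2.83 and 6.44 at 0 dpa against 20.8 and 43.1 at 6 dpa (2.54, adjusted p = 0.0543), while the PAR bZIP activators dbpa and tefa were lower. Dbpa had 18.4 and 9.52 at 0 dpa against 3.15 and 2.82 at 6 dpa (-1.85, adjusted p = 0.0734), and tefa had 97.7 and 71.1 against 34.0 and 40.0. Nfil3-6 was lower, unlike nfil3-2 and nfil3-5, with 43.8 and 55.7 at 0 dpa against 15.5 and 23.2 at 6 dpa.

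**Figure D3:**
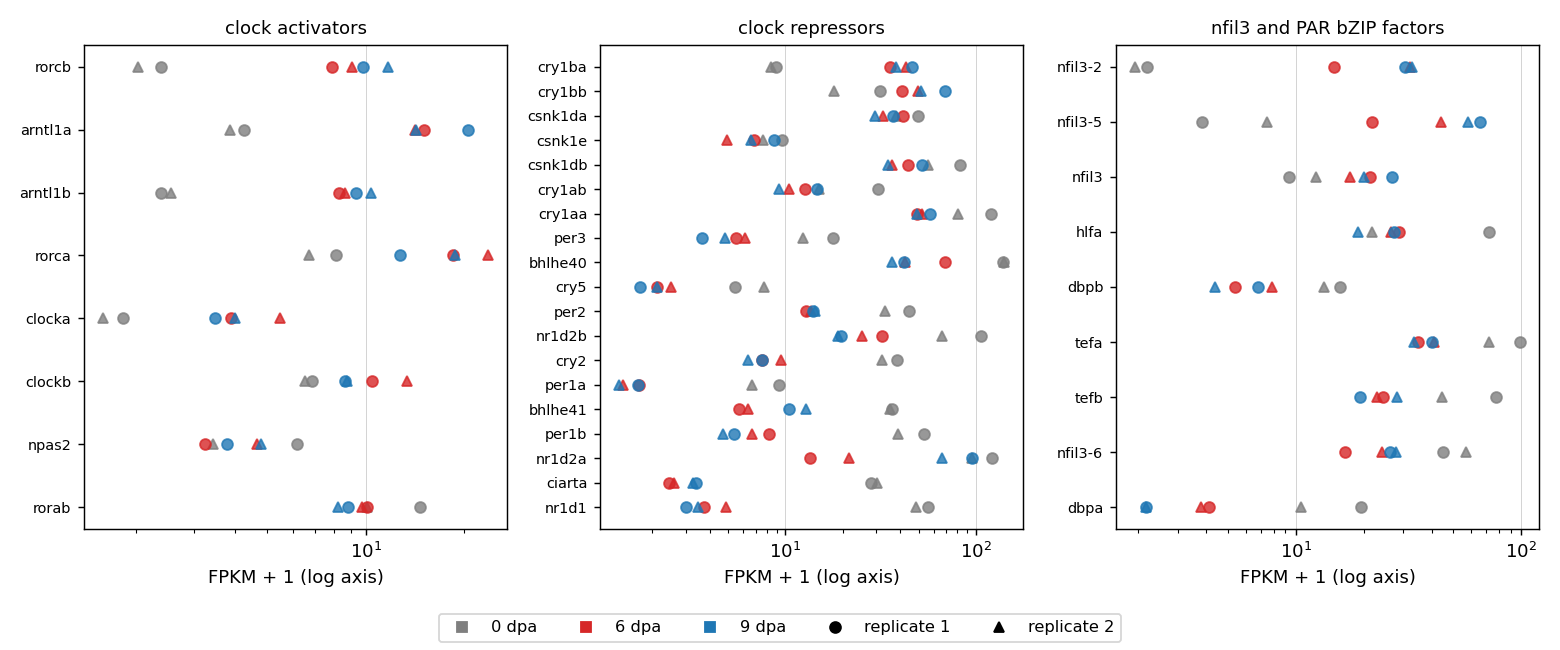
FPKM + 1 on a log axis for the tested clock activators, clock repressors and nfil3 and PAR bZIP factors in the 6 RNA libraries, ordered from top to bottom by their change between 6 and 0 dpa. Grey is 0 dpa, red is 6 dpa and blue is 9 dpa, circles are replicate 1 and triangles replicate 2, and most activators have their red points to the right of the grey ones where most repressors have them to the left.

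Genes that answer to glucocorticoid and chaperone genes were more often lower than higher at 6 dpa. Of 22 glucocorticoid response genes tested, 10 were lower and 3 higher by the 3 criteria, with a median of -0.78. The median was -0.46 without 0 dpa replicate 1 but -1.18 without 0 dpa replicate 2, and -0.46 with equal sums of FPKM. Klf9, a transcription factor that glucocorticoid induces, had an FPKM of 55.4 and 52.0 at 0 dpa against 6.44 and 12.8 at 6 dpa, and fell by 2.43 (standard error 0.35, adjusted p = 0.0345). The kinase gene sgk2b was lower, with 28.2 and 53.7 at 0 dpa against 11.3 and 13.1 at 6 dpa (-1.60, adjusted p = 0.0868). Its relative sgk2a was higher, with 5.06 and 2.05 at 0 dpa against 15.2 and 10.5 at 6 dpa (1.67, adjusted p = 0.0909). Of 41 heat shock and chaperone genes, 22 were lower and 2 higher. Their median of -0.79 stayed between -0.90 and -0.64 when a library was left out, and was -0.49 with equal sums. The 2 higher genes were hsp90b1 (1.27) and serpinh1b (0.77). They are also counted below, on the list of the endoplasmic reticulum and on the collagen list. Hsp70l, an inducible Hsp70, had 25.7 and 23.8 at 0 dpa against 1.86 and 1.22 at 6 dpa, and fell by 3.35 (standard error 0.28, adjusted p = 0.00778). Hsp70.2 fell from 12.03 and 18.1 to 0.679 and 1.17 (-3.05, adjusted p = 0.0314) and hsp70.3 from 13.2 and 18.8 to 1.18 and 1.46 (-2.86, adjusted p = 0.0314). The 6 dpa values of these Hsp70 genes were all under 2 FPKM. Hsp70 genes are near-identical copies of each other, and how the authors' quantification divided their reads is uncertain, so the 3 falls may not be separate. Of 36 immediate early genes, which switch on within minutes of a stimulus, 6 were lower and 1 higher. Their median of -0.37 was 0.06 without 6 dpa replicate 1 and -0.05 with equal sums, where that of all genes was 0.30. Klf2b, a flow-responsive factor of the endothelium, had 56.9 and 35.5 at 0 dpa against 15.4 and 16.9 at 6 dpa (-1.42, adjusted p = 0.0871), and klf6a had 108 and 91.4 against 39.1 and 47.1.

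Heart muscle genes showed a mixed picture that depended on 1 library of 0 dpa. Scaling of the libraries moved their differences along with those of all genes. Of 33 sarcomere and contraction genes tested, 6 were lower and 2 higher, and 26 had a negative difference. The median of -0.39 was 0.11 without 0 dpa replicate 1 but -0.90 without 0 dpa replicate 2. With equal sums of FPKM it was -0.09, where that of all genes was 0.30. Less the median of all genes, it was -0.39 both with equal sums and with median-ratio scaling. The summed level of the list was 124366 and 59977 at 0 dpa against 63420 and 53628 at 6 dpa, so that 0 dpa replicate 1 stood above the other 3 libraries. Tcap, which anchors titin at the Z-disc, had an FPKM of 725 and 498 at 0 dpa against 122 and 129 at 6 dpa (-2.25, adjusted p = 0.0647). Actc1b, a sarcomeric actin gene, was higher, with 4.55 and 0.930 at 0 dpa against 12.5 and 31.8 at 6 dpa (2.68, adjusted p = 0.0899). Myoz2b, a Z-disc protein, had 327 and 201 at 0 dpa against 97.6 and 65.1 at 6 dpa. All 3 met the criteria without overlap, like nearly all genes that met them. The abundant myl7 met them as well, with a difference of -0.75 (adjusted p = 0.296). Its difference was -0.42 with equal sums and -0.34 without 0 dpa replicate 1, short of 1.5-fold in both, and -1.16 without 0 dpa replicate 2. The heart muscle markers tnnt2a (-0.53, adjusted p = 0.536) and nppa (-0.58, adjusted p = 0.595) did not meet the criteria. Of 27 genes of calcium handling and excitation, 9 were lower and 0 higher. Their median was -0.69 (-0.36 without 0 dpa replicate 1, -0.96 without 0 dpa replicate 2, -0.39 with equal sums). Camk2d2, a CaMKII subunit, had 84.0 and 35.9 at 0 dpa against 11.3 and 15.2 at 6 dpa (-1.99, adjusted p = 0.0848). The potassium channel genes kcnq1 and kcnh6a were lower, with 29.4 and 19.3 against 10.8 and 11.5 for kcnq1 and 193 and 101 against 64.4 and 55.3 for kcnh6a. The sodium channel gene scn5lab had 12.8 and 8.19 at 0 dpa against 4.07 and 5.53 at 6 dpa.

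None of 24 cardiac transcription factors met the criteria in either direction, beside 15.3% of all genes tested. Of these factors, 0 had an unadjusted p under 0.05 in limma. Their median was 0.04, which was -0.03 under median-ratio scaling, -0.21 without 0 dpa replicate 2 and 0.36 without 0 dpa replicate 1. Of 11 natriuretic peptide and stretch genes, 2 were higher and 3 lower, with a median of -0.58 (-0.10 without 6 dpa replicate 2, -0.79 without 0 dpa replicate 1). Nppb, a natriuretic peptide that stretched heart muscle releases, had an FPKM of 724 and 1560 at 0 dpa against 436 and 349.9 at 6 dpa (-1.44, adjusted p = 0.181). Npr3, the clearance receptor for these peptides, had 22.4 and 8.53 at 0 dpa against 2.64 and 5.50 at 6 dpa. Aplnrb, a receptor for apelin, was higher, with 31.0 and 9.55 at 0 dpa against 83.4 and 64.3 at 6 dpa (2.01, adjusted p = 0.115). In all 3 the higher value of one group stayed below the lower value of the other, as in nearly all genes that met the criteria. Among 16 smooth muscle and outflow tract genes, pdgfrb, a PDGF receptor of mural cells, was the 1 that met the criteria, with 5.13 and 5.21 at 0 dpa against 11.82 and 8.18 at 6 dpa. The median of that list, -0.23, was 0.09 with equal sums, 0.08 without 0 dpa replicate 1 and -0.53 without 0 dpa replicate 2. Of 36 genes of muscle ubiquitin ligases and autophagy, 5 were higher and 2 lower, with a median of -0.02 (0.27 with equal sums, 0.24 without 0 dpa replicate 1 and -0.19 without 0 dpa replicate 2). Besides asb15b, trim55a rose, which encodes the muscle ring finger protein MuRF2, from 4.09 and 4.73 to 13.8 and 17.8 (1.63, adjusted p = 0.0407). The autophagy gene atg12 was higher, with 17.4 and 17.1 at 0 dpa against 39.4 and 35.1 at 6 dpa (1.06, adjusted p = 0.102).

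The genes of energy metabolism were nearly all on the lower side, and few met the criteria. The share was 7.41% for the respiratory chain, 9.8% for oxidation and the TCA cycle and 10% for glycolysis, beside 15.3% of all genes tested. Of 81 respiratory chain genes, 77 had a negative difference, 5 were lower by the criteria and 1 higher, with a median of -0.55. Cox7a2a, a subunit of cytochrome oxidase, had an FPKM of 497 and 524 at 0 dpa against 243 and 315 at 6 dpa (-0.88, adjusted p = 0.22). Cox4i2, an alternative subunit of the same complex, was the 1 that was higher, with 30.0 and 20.9 at 0 dpa against 38.7 and 46.5 at 6 dpa (0.74, adjusted p = 0.296). Of 51 genes of fatty acid oxidation and the TCA cycle, 5 were lower and 0 higher, with a median of -0.33. Cpt1b, which brings fatty acids into muscle mitochondria, had 259.8 and 131 at 0 dpa against 51.1 and 51.7 at 6 dpa (-1.82, adjusted p = 0.0778). Pparaa and esrra, nuclear receptors that drive oxidation genes, had 8.43 and 6.26 against 2.92 and 2.74 for pparaa and 29.3 and 37.7 against 19.6 and 14.7 for esrra. Of 30 glycolysis genes, 2 were higher and 1 lower, with a median of -0.34. The 2 higher genes were pfklb, a phosphofructokinase subunit, with 1.84 and 1.32 at 0 dpa against 4.19 and 5.08 at 6 dpa, and the lactate transporter slc16a1a, with 3.98 and 2.99 against 11.78 and 7.04. These medians depended on the 0 dpa libraries. Without 0 dpa replicate 1 they were -0.13, 0.10 and -0.15 for the respiratory chain, oxidation and glycolysis, and without 0 dpa replicate 2 they were -0.94, -0.77 and -0.56. With equal sums they were -0.22, -0.01 and -0.05, where the median of all genes was 0.30. Less that median they were -0.53, -0.31 and -0.35. At 0 dpa, 3 of the 81 respiratory chain genes were higher in replicate 2 than in replicate 1.

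Genes of the cell cycle were on the higher side at 6 dpa, by an amount that differed between the 6 dpa libraries. Of 46 DNA replication genes tested, 18 were higher by the 3 criteria, 0 were lower and 46 had a positive difference, with a median of 0.91. Of 44 genes of mitosis and cyclins, 11 were higher, 0 lower and 42 positive, with a median of 0.85. Mcm7, a subunit of the replicative helicase, had an FPKM of 12.4 and 11.4 at 0 dpa against 36.1 and 23.3 at 6 dpa (1.22, standard error 0.28, adjusted p = 0.102). Rrm1 and rrm2, the subunits of ribonucleotide reductase, had 4.45 and 11.9 against 37.4 and 16.04 for rrm1 and 1.52 and 8.47 against 30.0 and 11.6 for rrm2. Spc24, a kinetochore protein, had 1.91 and 2.73 at 0 dpa against 11.7 and 5.52 at 6 dpa (1.47, adjusted p = 0.118). In each of them the values of 6 dpa lay above those of 0 dpa, with replicate 1 of 6 dpa the highest. Ccnd2a, a D-type cyclin, had 10.96 and 17.5 at 0 dpa against 24.6 and 26.4 at 6 dpa (0.83, adjusted p = 0.25). None of the genes on these lists passed the adjusted threshold. At 6 dpa, 0 of 46 replication genes and 2 of 44 mitosis genes were higher in replicate 2 than in replicate 1, and at 0 dpa 36 and 42 of them were. The median of the replication genes was 0.41 without 6 dpa replicate 1 but 1.27 without 6 dpa replicate 2, and that of the mitosis genes was 0.23 and 1.48.

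Matrix and epicardial genes were more often higher than lower at 6 dpa, and most of them did not meet the criteria. Of 34 matrix glycoproteins and matricellular proteins tested, 11 were higher and 0 lower, with a median of 0.52 that stayed between 0.43 and 0.70 with any 1 library left out. Fn1b and fn1a encode fibronectin, an early component of the wound matrix. Fn1b had an FPKM of 102 and 139.9 at 0 dpa against 779 and 340.3 at 6 dpa (2.101, standard error 0.49, adjusted p = 0.104), and fn1a had 11.9 and 18.0 against 119 and 41.9 (2.197, adjusted p = 0.113). Both 6 dpa values were above both of 0 dpa, with replicate 1 more than 2-fold above replicate 2. Lum, the proteoglycan lumican, had 4.18 and 11.7 at 0 dpa against 41.5 and 35.2 at 6 dpa (2.28, adjusted p = 0.0759), and mfap2, a microfibril protein, had 2.85 and 5.78 against 29.1 and 16.3. Of 25 genes of collagen chains and processing, 9 were higher and 1 lower, with a median of 0.60 (0.26 without 0 dpa replicate 2, 0.75 without 0 dpa replicate 1). The fibrillar collagen genes stood out in level. Col1a2 had 107 and 78.1 at 0 dpa against 509 and 278 at 6 dpa (2.03, standard error 0.38, adjusted p = 0.0675), col1a1a had 93.6 and 74.1 against 500.3 and 228, and col1a1b had 130.5 and 80.7 against 484 and 253. Each was higher in 6 dpa replicate 1 than in replicate 2. Of 21 matrix proteases and inhibitors, 5 were higher and 0 lower, with a median of 0.29 (0.01 without 6 dpa replicate 1, 0.72 without 0 dpa replicate 2). Timp4.3, an inhibitor of metalloproteinases, had 3.28 and 2.94 at 0 dpa against 15.2 and 8.60 at 6 dpa, and mmp2, a gelatinase, had 122 and 101 against 307 and 206.

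Of 24 epicardial genes, 9 were higher and 1 lower, with a median of 0.53 that lay between 0.37 and 0.76 with any 1 library left out. Sema3d, a guidance cue that epicardial cells secrete, had an FPKM of 3.59 and 2.97 at 0 dpa against 14.2 and 11.1 at 6 dpa, and rose by 1.67 (standard error 0.26, adjusted p = 0.0409). Tbx18, a transcription factor that marks the epicardium, had 13.1 and 13.1 at 0 dpa against 37.0 and 24.9 at 6 dpa (1.15, adjusted p = 0.122), and tcf21 had 41.5 and 26.7 against 68.6 and 63.8 (0.97, adjusted p = 0.245). Wt1b varied more within each time point, with 3.73 and 8.03 at 0 dpa against 23.0 and 9.43 at 6 dpa, and did not meet the criteria. The junction gene jam2b had 2.77 and 1.97 at 0 dpa against 15.4 and 6.50 at 6 dpa (1.73, adjusted p = 0.0952). Fn1b is on both the matrix and the epicardial list, so the counts of these lists are not separate.

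Endothelial genes were more often lower. Of 38 genes of the endocardium and endothelium, 9 were lower and 2 higher, with a median of -0.32 (-0.08 without 0 dpa replicate 1, -0.63 without 0 dpa replicate 2). The median was -0.01 with equal sums, where that of all genes was 0.30. Ramp2, the partner protein of the adrenomedullin receptor, had an FPKM of 349.6 and 271 at 0 dpa against 102 and 58.7 at 6 dpa (-1.98, standard error 0.35, adjusted p = 0.0635). Flt1, a VEGF receptor, had 52.7 and 41.1 at 0 dpa against 11.4 and 16.9 at 6 dpa (-1.67, adjusted p = 0.0885), and egfl7 had 94.4 and 101 against 37.2 and 50.3. The groups of these genes did not overlap, as in nearly all genes that met the criteria. The markers cdh5 and kdrl did not meet the criteria. Cdh5 had 48.8 and 51.6 against 47.4 and 39.9, and kdrl had 67.0 and 42.6 against 29.3 and 43.2. The marker pecam1 met them and was lower, with 31.3 and 23.3 against 14.7 and 19.0 (-0.66, adjusted p = 0.297). Of 85 regeneration signals and receptors, 10 were lower and 5 higher, with a median of -0.13 that was 0.19 with equal sums and stayed between -0.27 and -0.03 when a library was left out. Vegfaa, the ligand of VEGF receptors, had 16.2 and 21.5 at 0 dpa against 5.69 and 9.36 at 6 dpa (-1.24, adjusted p = 0.118). Id2b, a target of BMP signals, had 162 and 124 at 0 dpa against 54.1 and 58.5 at 6 dpa (-1.32, adjusted p = 0.0898). Igfbp1a, a binding protein of insulin-like growth factors, had 223 and 95.8 at 0 dpa against 8.60 and 30.9 at 6 dpa (-3.07, adjusted p = 0.13). All 3 were without overlap, like nearly all genes that met the criteria, and the 2 libraries of each time point were far apart for igfbp1a.

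Red blood cell genes other than haemoglobin were more often higher than lower at 6 dpa. Of 33 tested, 17 were higher by the 3 criteria and 0 lower, with a median of 0.92 (0.57 without 0 dpa replicate 2, 1.22 without 0 dpa replicate 1). The summed level of the list was 7291 and 3948 at 0 dpa against 12988 and 11696 at 6 dpa. These sums did not overlap, as was so for 45.7% of the single genes tested. Klf1, the erythroid Kruppel-like factor, had an FPKM of 11.3 and 7.43 at 0 dpa against 37.4 and 34.1 at 6 dpa (1.85, standard error 0.32, adjusted p = 0.0621). Gata1a, the master regulator of red blood cell formation, had 12.2 and 4.70 at 0 dpa against 40.23 and 44.9 at 6 dpa (2.33, adjusted p = 0.0675). Tfr1a, the receptor that takes up iron on transferrin, had 44.3 and 33.4 at 0 dpa against 108 and 111 at 6 dpa (1.48, adjusted p = 0.0683). In the 3 genes the 6 dpa replicates lay close together and above 0 dpa. The haem synthesis gene alas2 had 478 and 224 against 1432 and 1141. The red blood cell marker slc4a1a, with 341 and 212 against 542 and 550, did not meet the criteria (1.02, adjusted p = 0.332). Haemoglobin itself could not be read in the same way, because hbaa1, at 67806 and 38020 at 0 dpa, and ba1, at 28924 and 16543, stood at 0 in the 6 dpa libraries while hbaa2 and hbba2 did not. Hbaa2 had 5399 and 4291 at 0 dpa against 7476 and 7889 at 6 dpa (0.67, adjusted p = 0.305). Of the 7 haemoglobin genes tested, a list added after the values were seen, 1 was higher and 2 lower by the criteria. That is 42.9%, beside 15.3% of all genes tested, and these paralogs can share reads. Their median of -0.52 was 0.03 without 6 dpa replicate 2 but -0.85 without 6 dpa replicate 1.

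The macrophage and interferon genes gave no stable direction. The 3 criteria were met by 8.33% of the macrophage and neutrophil genes and 6.06% of the interferon genes, beside 15.3% of all genes tested. Of 48 macrophage and neutrophil genes, 3 were higher and 1 lower, and their median of 0.32 was -0.85 without 0 dpa replicate 1 but 1.58 without 0 dpa replicate 2. The summed level of the list was 5097 and 15459 at 0 dpa against 8743 and 7050 at 6 dpa, so both 6 dpa libraries lay between those of 0 dpa. Mpeg1.1, a macrophage perforin, had an FPKM of 13.9 and 171 at 0 dpa against 88.8 and 76.7 at 6 dpa, and csf1ra, the macrophage growth factor receptor, had 3.72 and 58.0 against 32.6 and 21.1. Lyz, a lysozyme of neutrophils, had 87.4 and 105 at 0 dpa against 9.27 and 134 at 6 dpa. For these markers the spread within a time point was larger than the difference between time points. Mpx, the neutrophil peroxidase, met the criteria, with 1.92 and 2.03 at 0 dpa against 4.61 and 4.21 at 6 dpa (0.86, adjusted p = 0.322). Of 33 genes of antigen presentation and interferon response, 2 were higher and 0 lower, with a median of 0.51 that was -0.04 without 0 dpa replicate 1 but 1.12 without 0 dpa replicate 2. Rsad2, an antiviral gene that interferon induces, had 4.82 and 2.44 at 0 dpa against 18.1 and 6.90 at 6 dpa. Of 18 lymphocyte and thrombocyte genes, 5 were higher and 1 lower, with a median of 0.49 (0.05 without 0 dpa replicate 1, 0.99 without 0 dpa replicate 2). Thrombocyte genes were among the higher ones, with 4.37 and 4.88 against 12.1 and 8.66 for mpl, the thrombopoietin receptor. Nfe2, a factor of erythroid cells and thrombocytes, had 12.7 and 4.92 at 0 dpa against 26.2 and 26.3 at 6 dpa. The part of white blood cells from 0 dpa replicate 2 in the other results was not tested.

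Skin genes were high in 1 of the 6 dpa libraries. Of 25 keratin and skin epithelium genes tested, 7 were higher by the 3 criteria and 0 lower, with a median of 1.15 that was 0.48 without 6 dpa replicate 2 but 1.96 without 6 dpa replicate 1. Krt5, a keratin of the basal epidermis, had an FPKM of 3.30 and 1.73 at 0 dpa against 12.04 and 187 at 6 dpa. Epcam, an adhesion protein of epithelia, had 0.663 and 0.252 at 0 dpa against 3.20 and 60.7 at 6 dpa (3.48, adjusted p = 0.202), and cldni, a claudin of tight junctions, had 0.990 and 0.648 against 2.90 and 38.4. Replicate 2 was more than 10 times replicate 1 in each. Krt4 was even between the 6 dpa libraries, with 246 and 115 at 0 dpa against 366 and 311 at 6 dpa, and did not meet the criteria. The summed level of the list, most of it abundant keratins, was 4855 to 7696 at 0 dpa against 7869 to 8306 at 6 dpa. Of all genes tested, 31 stood at 0 in both 0 dpa libraries with a mean of at least 3 at 6 dpa, and 29 of these were at least 4 times higher in 6 dpa replicate 2 than in replicate 1. Besides krt17 and icn2 they included foxi3a and foxi3b, which specify ionocytes of the skin, and were named after their values were seen. Among the 727 genes higher by the criteria, 18 were at least 4-fold higher in 6 dpa replicate 2 than in replicate 1. The same share over all genes tested was not counted. Of the 64 genes past the adjusted threshold 0 were. The test divides by the spread between replicates, so a gene with such uneven replicates can hardly pass that threshold. The 0 therefore says nothing about skin cells. Apoeb is on the list of macrophage genes, and anxa1c is on both that list and the skin list and is counted in each. Both were highest in 6 dpa replicate 2. Apoeb had 9.90 and 8.42 at 0 dpa against 29.5 and 192 at 6 dpa, and anxa1c had 0.234 and 0.155 against 2.00 and 42.4. The part of skin cells in these results was not tested.

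Few genes of skeletal muscle, liver and nervous tissue passed the FPKM filter. Of 14 skeletal muscle genes tested, out of 37 in the table, 5 were higher and 1 lower, with a median of 0.58 (0.19 without 6 dpa replicate 2, 1.80 without 6 dpa replicate 1). Pvalb2, a parvalbumin of fast muscle, had an FPKM of 3.79 and 2.15 at 0 dpa against 14.8 and 32.0 at 6 dpa (2.55, adjusted p = 0.0647), and mylpfa, a fast myosin light chain, had 2.49 and 0.714 against 12.2 and 34.2. Myhz2, a fast myosin heavy chain, stood at 0 in both 0 dpa libraries and at 0.230 and 1.09 at 6 dpa, below the filter. The summed level of the list, 6438 to 12404 at 0 dpa against 5846 to 6932 at 6 dpa, came largely from genes that the heart also expresses, such as acta1b, with 5577 and 2834 against 2393 and 1352. Of 6 liver genes tested, out of 27 in the table, 1 was higher, with a median of 1.08 that was 0.16 without 6 dpa replicate 2 but 1.54 without 6 dpa replicate 1. It was tfa, the gene for transferrin, with 36.3 and 115 at 0 dpa against 506 and 191 at 6 dpa. Fabp10a, a defining liver gene, had 4.43 and 0.984 at 0 dpa against 1.66 and 37.7 at 6 dpa, and the summed level of the list was 1058 to 1566 at 0 dpa against 1371 to 1460 at 6 dpa. Of 5 genes of neurons and glia that passed the filter, out of 28 in the table, 0 met the criteria and 0 had an unadjusted p under 0.05 in limma. So few genes cannot be set apart from the 15.3% of all genes tested. Their median was -0.29 (-0.71 without 0 dpa replicate 2, -0.01 without 6 dpa replicate 2). The part of these tissues in the results was not tested.

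Few genes of ribosome biogenesis, ribosomal proteins and the proteasome met the criteria, and most had a negative difference. The share was 5.56% for ribosome biogenesis, 2.47% for ribosomal proteins and 4.17% for the proteasome, beside 15.3% of all genes tested. Of 72 ribosome biogenesis genes, 4 were lower and 0 higher, and of 81 cytosolic ribosomal proteins 2 were lower and 0 higher. A negative difference was found in 48 of the 72 and in 79 of the 81, and the medians were -0.11 and -0.38. The first was 0.18 with equal sums and -0.23 without 6 dpa replicate 1, and the second was -0.06 with equal sums, -0.11 without 0 dpa replicate 1 and -0.64 without 0 dpa replicate 2. Rrs1, a ribosome assembly factor, had an FPKM of 15.02 and 13.3 at 0 dpa against 7.86 and 5.15 at 6 dpa (-1.03, adjusted p = 0.141). Of 48 proteasome genes, 2 were lower, 0 higher and 41 negative, with a median of -0.29 that was -0.45 without 0 dpa replicate 1. The median was 0.03 with equal sums, where that of all genes was 0.30. Psme3, an activator of the proteasome, had 31.3 and 26.3 at 0 dpa against 19.5 and 13.9 at 6 dpa. Of 71 genes of translocation and folding in the endoplasmic reticulum (ER) and of COPII transport, 6 were higher and 9 lower. That is 21.1% of the list, above the 15.3% of all genes tested (7.84% higher and 7.51% lower). The median of the ER list was -0.10 (0.20 with equal sums, 0.01 without 6 dpa replicate 2, -0.23 without 6 dpa replicate 1). Kdelr3, a receptor that returns chaperones to the ER, had 3.43 and 2.502 at 0 dpa against 13.1 and 10.3 at 6 dpa (1.68, standard error 0.28, adjusted p = 0.0532). Pdia4, a disulphide isomerase, had 9.40 and 10.7 at 0 dpa against 29.2 and 23.6 at 6 dpa (1.305, adjusted p = 0.0682), and calr, a calcium-binding chaperone, had 3.41 and 4.98 against 12.3 and 8.41. Srp14, a subunit of the signal recognition particle, was lower, with 49.8 and 58.1 at 0 dpa against 27.197 and 23.7 at 6 dpa.

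Of 33 apoptosis and BCL2 family genes, 4 were higher and 4 lower, with a median of 0.10 (-0.14 without 0 dpa replicate 1, -0.04 without 6 dpa replicate 2). The share that met the criteria was 24.2%, beside 15.3% of all genes tested. Of the 4 lower genes, 3 encode inhibitors of cell death and the other, baxa, a promoter of it. Bcl2l10 had an FPKM of 400.1 and 291 at 0 dpa against 106 and 95.7 at 6 dpa (-1.75, standard error 0.30, adjusted p = 0.0606). Xiap, an inhibitor of caspases, had 74.5 and 57.0 at 0 dpa against 20.6 and 23.0 at 6 dpa (-1.54, adjusted p = 0.0621), and mcl1b had 235 and 236 against 103 and 112. These groups did not overlap, as in nearly all genes that met the criteria. Of 17 cholesterol synthesis genes, 5 were higher and 0 lower, with a median of 0.41 that lay between 0.38 and 0.48 with any 1 library left out. Hsd17b7, an enzyme of the pathway, had 3.03 and 0.839 at 0 dpa against 9.37 and 11.5 at 6 dpa (2.07, adjusted p = 0.113). Of 26 enzymes and readers of H3K9 modifications, the marks profiled in this series, 2 were higher and 0 lower, with a median of 0.24 (0.15 without 0 dpa replicate 2, 0.35 without 0 dpa replicate 1). That is 7.69% of the list, beside 15.3% of all genes tested that met the criteria, 7.84% of them higher. Cbx1a, an HP1 protein that binds methylated H3K9, had 8.24 and 11.3 at 0 dpa against 32.5 and 21.0 at 6 dpa (1.35, adjusted p = 0.0909). Hdac10 had 7.33 and 4.86 against 13.2 and 14.8. It is on the list as a member of the histone deacetylase family, and whether it acts on H3K9 was not tested.

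**Figure D4:**
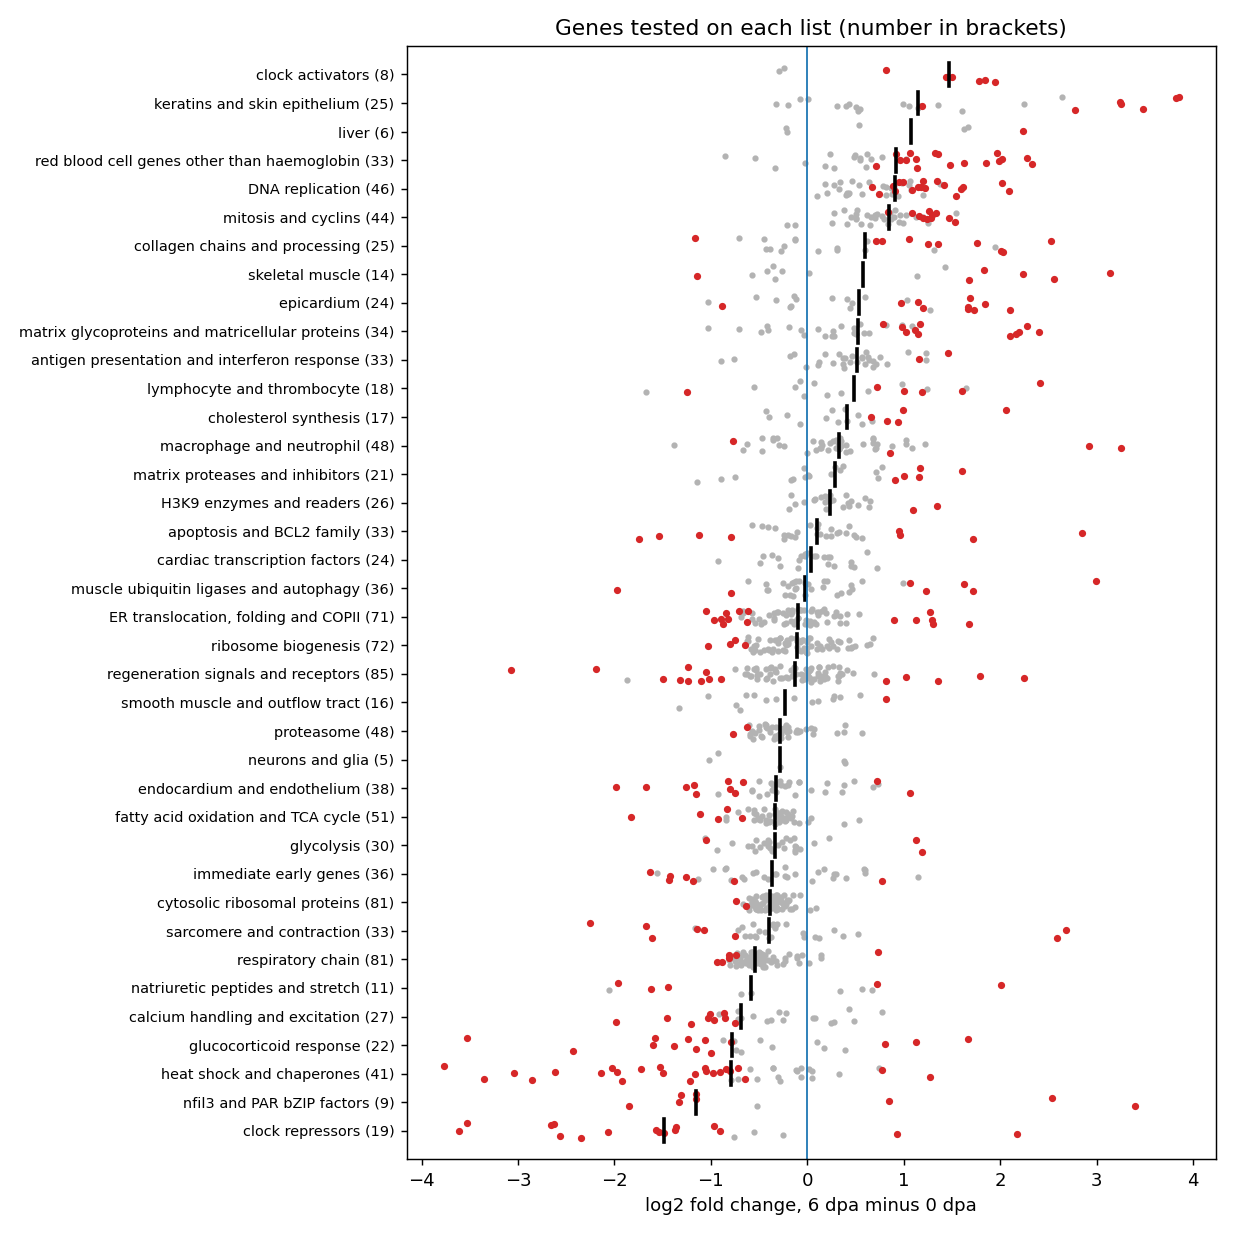
Log2 fold change, 6 minus 0 dpa, of every tested gene on the 38 lists, with the number tested in brackets. Red points met the 3 criteria, grey points did not and black bars are list medians, which run from 1.47 for the clock activators to -1.49 for the clock repressors.

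Some further lists met the 3 criteria at a share near or below the 15.3% of all genes tested. These were the immediate early genes and the muscle ubiquitin ligases and autophagy (19.4% each), regeneration signals (17.6%), liver (16.7%) and smooth muscle (6.25%). Higher shares were 23.8% for matrix proteases, 24.2% for sarcomere genes and 25% for mitosis. Keratins had 28%, endothelium 28.9%, cholesterol synthesis 29.4% and matrix glycoproteins 32.4%. Calcium handling and lymphocyte genes had 33.3% each, DNA replication 39.1% and collagen 40%. Epicardial genes had 41.7%, skeletal muscle 42.9% and natriuretic genes 45.5%. Red blood cell genes had 51.5%, chaperones 58.5% and glucocorticoid response genes 59.1%. Clock activators had 75%, clock repressors 84.2% and the nfil3 and PAR bZIP list 88.9%. These lists were chosen with earlier results of these data known. The medians of the lists differed in how far they depended on single libraries. Those of the clock, the chaperones, the matrix glycoproteins and the epicardium kept their direction, and those of the sarcomere, fatty acid oxidation, immediate early, macrophage and interferon genes crossed 0 when 1 library was left out, as did several lists with medians near 0. Among the genes tested, the 5 most abundant were mb, which encodes myoglobin, then si:ch211-5k11.8 and myl7, followed by slc25a5 and gapdh. Of these, only myl7 met the 3 criteria. Gapdh had an FPKM of 24177 and 9537 at 0 dpa against 13417 and 14521 at 6 dpa, and slc25a5 had 30424 and 13298 against 12632 and 14732. Both 6 dpa values of gapdh lay between those of 0 dpa. The symbol hbaa1, which was left out of the test, stood above all 5 at 0 dpa, and mb stood at 0 in both libraries of 9 dpa.

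**Figure D5:**
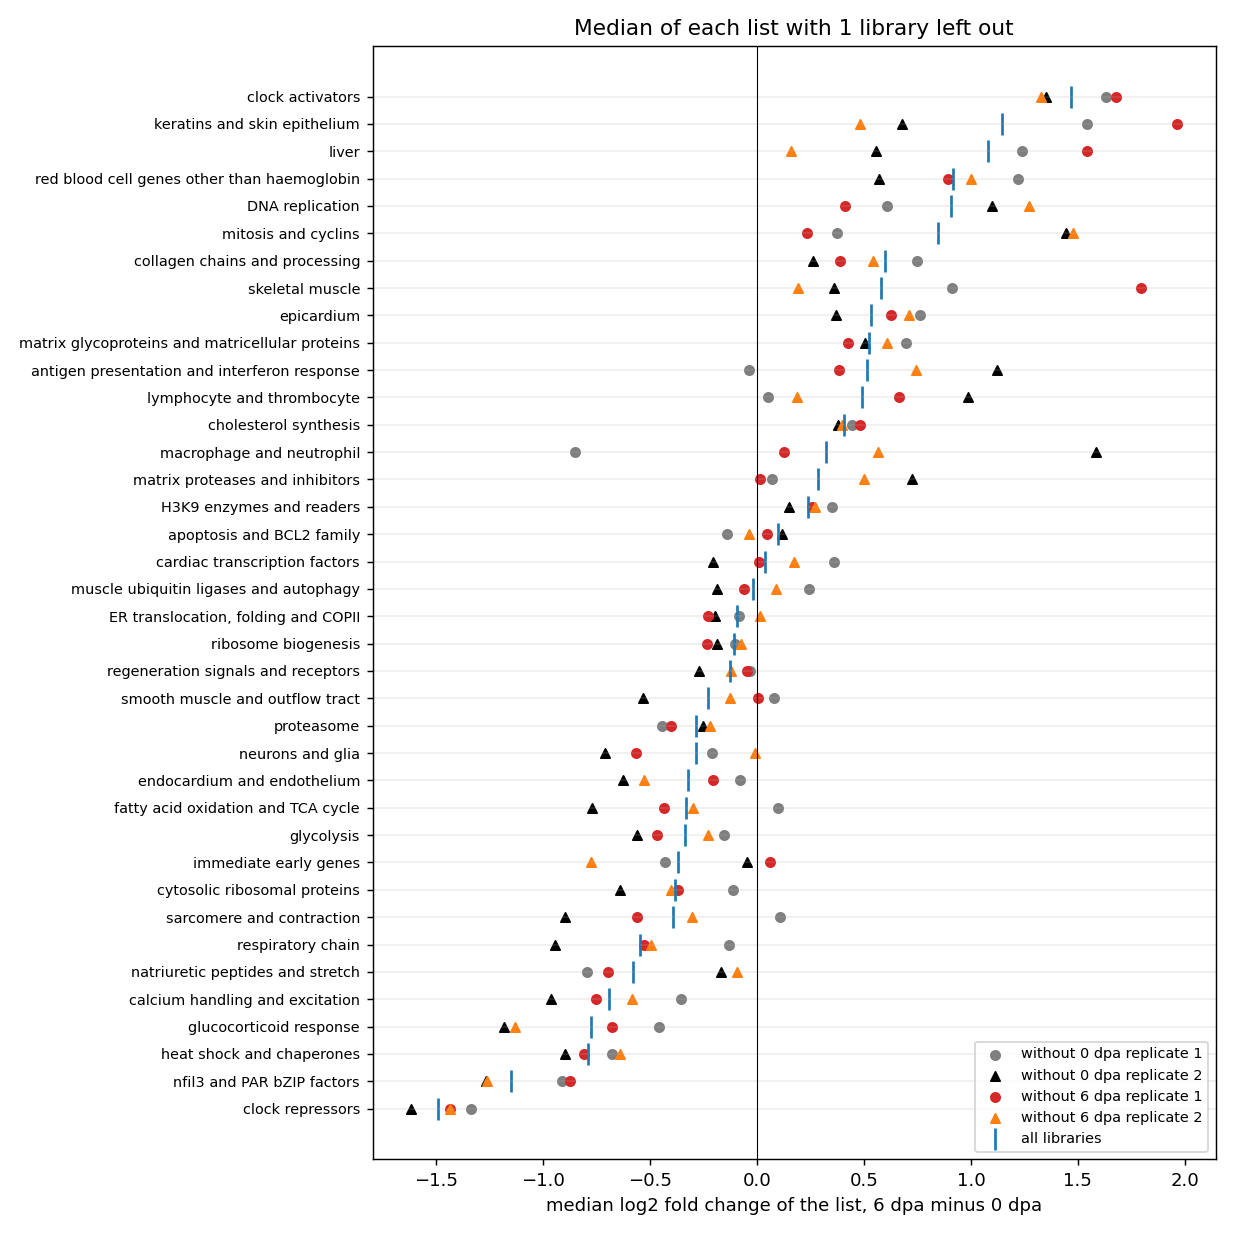
Median log2 fold change of each list, 6 minus 0 dpa, with all libraries (blue bars) and with 1 of the 4 libraries left out (grey, black, red and orange points). The macrophage and neutrophil list runs from -0.85 to 1.58, and the clock repressors stay between -1.62 and -1.34.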

How the data were processed

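Polyadenylated RNA of 6 heart tissue libraries was sequenced by the study in paired-end mode. STAR was used by the authors for alignment to danRer10, and Cufflinks for conversion of the mapped reads to FPKM. Cuffdiff is also named in the submitters' processing notes. No version of these tools, no gene annotation and no further scaling between libraries is given in the sources used here. The deposited table holds 1 FPKM value per library for 15268 gene symbols, without coordinates or counts. The mapped reads of each library are given by the study and were not used here, and without counts per gene no counting interval is given. It holds 0 columns of other samples. No genome of that build was used, and no sequence or coordinate is printed.

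The test was limma's (version 3.58.1, R 4.3.3), run on log2(FPKM + 1) in a fit of the 6 libraries with time point as the only term and a prior with a trend over expression (3 residual and 4.65 prior degrees of freedom). Limma took the place of the count model that the study names, with the same 3 criteria. P-values were adjusted over all 9273 genes by Benjamini and Hochberg. Fold changes are on the log2(FPKM + 1) scale, which understates the change of low genes. An exact permutation test of 2 against 2 libraries cannot give a p below 0.333 and was not used.

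Lists were described by counts and medians, with no test. Their members, 1866 entries on 38 lists of which 1584 matched the table, and 2 further lists were chosen with earlier results of these data known. Genes named are the 15 largest changes in each direction with an adjusted p under 0.05, no overlap and no group at 0, up to 4 members of each list in order of p, cell type markers and the 5 most abundant genes. Clock symbols were matched to current names through RefSeq. The fit was repeated under 14 settings. These were a pseudocount of 0.1, no FPKM filter, a minimum of 1, median-ratio scaling, equal sums of FPKM, the 4 libraries alone, a replicate block, no trend, 2 other forms of the exclusion and leaving out each of the 4 libraries. The code was tested on simulated data. Figures were made with Python 3.11.15, pandas 2.3.3, numpy 2.4.6 and matplotlib 3.10.9.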

Additional observations from a re-analysis of the deposited data

How the results depend on the processing

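The 1423 genes by the 3 criteria became 985 to 2300 when 1 library was left out, with 543 to 969 higher and 424 to 1385 lower. Equal sums of FPKM gave 1684 higher and 357 lower. The 64 genes by adjusted p became 11 to 221 with 1 library left out, 1 to 128 of them higher and 10 to 122 lower. Without the FPKM filter 7 passed (1 higher, 6 lower), in the fit of the 4 libraries alone 16 (1 and 15) and without a trend 35 (12 and 23). Equal sums gave 64 higher by adjusted p, and median-ratio scaling 67 lower. The cause of these shifts was not tested, except that the fit of 4 libraries holds fewer samples and the fit without a filter tests 13746 genes. The labels do not say whether the replicate numbers pair the samples, and no pairing was assumed. The deviations of same-numbered libraries had a correlation of -0.084 for 0 with 6 dpa, 0.0913 for 0 with 9 dpa and 0.00673 for 6 with 9 dpa. With 2 libraries per time point these values cannot settle whether samples were paired. With a replicate block, 1522 genes met the 3 criteria and 9 passed by adjusted p (0 higher and 9 lower), where 1660 had an unadjusted p under 0.05 in limma. No gene past the adjusted threshold changed direction under any setting. For each library left out and for the other pseudocount this was fixed in advance, because the groups of these genes do not overlap. The settings for filter, exclusion, block, trend and the 4 libraries alone leave the fold change itself unchanged. Only a rescaling of the libraries could have turned the direction. Of the list members and abundant genes named by the rule, 3 changed direction, all of them chosen for abundance. The list members met the 3 criteria. The groups of 1421 of the 1423 such genes do not overlap, so leaving out a library could not turn nearly all of them. Mb and gapdh turned to 0.01 and 0.20 with equal sums, and slc25a5 and gapdh to 0.04 and 0.55 without 0 dpa replicate 1. Many of the 64 genes lost an adjusted p under 0.05 in limma under other settings. With a pseudocount of 0.1, 57 of them kept it, and without a trend 32 did. In the fit of the 4 libraries alone 16 kept it, with a replicate block 9 and without the FPKM filter 7. With 1 library left out, the lone library of its time point is assumed to vary like the others. With 2 libraries per time point, changes in low or uneven genes are the least certain, and a value of 0 can be a failed estimate.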

Other observations

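Of the 43 genes that fell between 0 and 6 dpa, 31 had a mean log2(FPKM + 1) at 9 dpa nearer to that of 6 dpa and 12 nearer to that of 0 dpa, and of the 21 that rose 20 were nearer to 6 dpa. The same share over all genes tested was not counted, so these counts do not set the 64 genes apart. Across all 9273 genes, Pearson's r of the 9 dpa libraries was 0.944 to 0.958 with those of 6 dpa and 0.918 to 0.945 with those of 0 dpa. The comparison used the 9 dpa libraries only for its estimate of spread. Klf9 came closest to its 0 dpa level, with an FPKM of 55.4 and 52.0 at 0 dpa, then 6.44 and 12.8 at 6 dpa, then 46.5 and 60.2 at 9 dpa, one value below and the other above those of 0 dpa. Nr1d2a, a clock repressor and one of the 12, had 119.9 and 94.1, then 12.4 and 20.5, then 94.8 and 65.1. Nr1d1, of the same receptor family, fell by more and stayed low, with 55.2 and 47.6, then 2.75 and 3.90, then 2.01 and 2.49. Hsp70l also stayed low, at 1.70 and 1.89 in the libraries of 9 dpa. These 4 genes were picked after their values were seen, and the differences between them were not tested.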
